A study of Bombus terrestris with 33 samples.

Results

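Brains of 33 Bombus terrestris (buff-tailed bumblebee) queens were sequenced, with 1 library per queen, and 17 of them form the comparison described here, taken by their group labels: 8 FR queens and 9 FM queens. FM queens were virgin females (gynes) that had been caged with males from the age of 5 days, did not mate, and were handled like the queens that did. FR queens had mated, had been kept cold at 5 °C for 8 weeks as an artificial hibernation, and were frozen 1 month after it with undeveloped ovaries. All came from commercial colonies. Colony C2 gave 3 queens of each group and colony C3 gave 3 of each, whereas colony C7 gave 3 FM queens and colony C9 gave 2 FR queens. The estimated age, printed in the labels without a unit, was 6 to 27 in FM and 91 to 102 in FR queens. Mating, hibernation, age and the time of sampling all change together between the groups and cannot be told apart. Mated queens frozen before hibernation (SM, 8 queens) and queens with developed ovaries after it (SR, 8 queens) entered the fits. Both groups are given only for reference. By the labels, SM queens were sampled 3 days after mating, at estimated ages within the FM range of 6 to 27. SR queens had the same 8 weeks at 5 °C as FR queens and were likewise sampled 1 month afterwards. The estimated ages of SR queens lay within the FR range of 91 to 102.

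A bumblebee queen lives for about a year: she leaves her natal nest, mates, passes the winter alone in a dormant state, and in spring develops her ovaries and founds a colony without workers. In this species juvenile hormone, released from glands behind the brain, is known to promote ovary growth, and the yolk protein vitellogenin rises with it. By the labels, FR queens had mated and passed the cold period with undeveloped ovaries, whereas FM queens had not mated. The features of the deposited table are contigs with bare numbers, and 0 of 10672 identifiers matched a name of the 13398 genes of the reference table. Genes of these pathways, markers of brain cell types and sequences could therefore not be looked up, the brain label was not checked against markers, and contigs are described by number. In whole brains, fewer cells of a type and less RNA per cell cannot be told apart.

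Total counts of the 17 libraries ranged from 44074336 to 61560882 and did not differ detectably between the groups (p = 0.788 by two-sided exact permutation, and 0.788 after adjustment over 4 library measures). The contig with the most reads over the libraries as a whole, which was not the first in every library, held 3.51 ± 3.65% of reads in FM (SD, n = 9) and 0.988 ± 1.64% in FR queens (SD, n = 8; exact permutation p = 0.0735, adjusted p = 0.147). The 10 contigs that ranked highest in the same way together held 13.3 ± 3.83% and 11.0 ± 2.02% (exact permutation p = 0.156, adjusted p = 0.209). FM queens had 6954 ± 155 and FR queens 7081 ± 107 contigs with a read (SD; exact permutation p = 0.0729, adjusted p = 0.147). Among the 64 pairs of queens within a group, none agreed within sampling noise.

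FR and FM brains differed on average along the main axis of variation, but 3 queens lay with the other group. Principal components were computed for the 17 queens from log2 CPM, the log of read counts scaled to library size. On the first, which held 34.4% of the variance, FM queens had a mean score of -15.0 ± 20.8 (SD, n = 9) and FR queens of 16.9 ± 22.1 (SD, n = 8). By exact permutation of the queens, two-sided, the difference of 31.9 passed (p = 0.0105, adjusted p = 0.0211 over 2 components). FM replicate 4, from colony C2, scored 25.4, among the FR queens of its colony at 24.0 to 36.7. FR replicate 37, from colony C9, scored -24.9, and FR replicate 32, from colony C3, scored -5.85, both within the range of the remaining FM queens, which reached from -37.4 to -0.710. Of the other FR queens, 5 scored between 24.0 and 36.7 and FR replicate 38 scored 10.9. Within colony C2 the mean was -16.1 in FM and 32.0 in FR queens (exact permutation p = 0.200), and within colony C3 it was -11.3 and 17.7 (exact permutation p = 0.300). With 3 against 3 queens no p below 0.1 can be reached. Moving the 12 queens of these colonies only within their colony gave a difference of 38.6 that did not pass after adjustment (exact permutation p = 0.0300, adjusted p = 0.0600 over 2 components). The second component held 14.3% of the variance, and on it the groups did not differ detectably (exact permutation p = 0.449, adjusted p = 0.449). FM replicate 6 scored -63.8 there and the other 16 queens between -6.89 and 13.0.

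**Figure D1:**
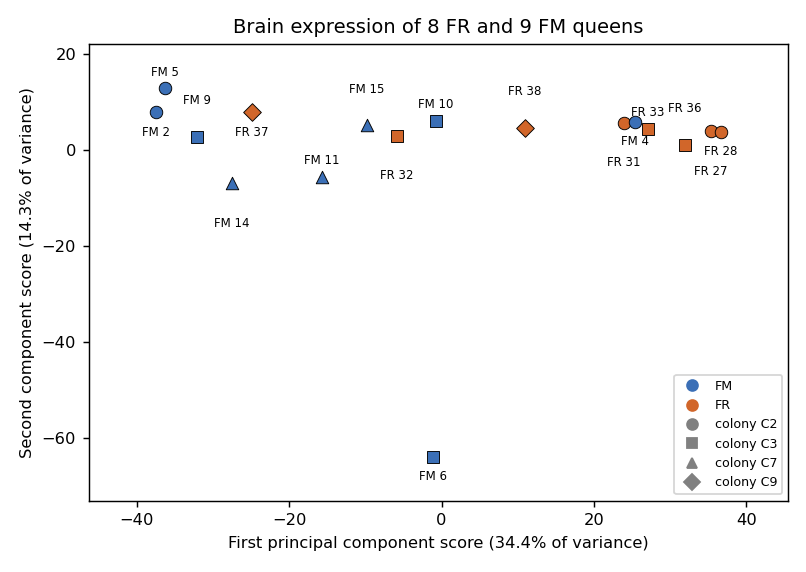
Scores of the 17 queens on the first and second principal components of log2 CPM, coloured by group and shaped by colony, with group and replicate number beside each point. The first axis separates most FR from most FM queens, with FM 4 at 25.4 among the FR queens and FR 37 at -24.9 among the FM queens.

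The same 3 queens stood apart when each was placed on contigs selected without it. Each queen was left out in turn, contigs were called between FR and FM from the other 32 libraries, and the log2 CPM of the absent queen on those contigs was projected on the line from the FM mean (position 0) to the FR mean (position 1) of the remaining queens. FM queens had a mean position of 0.220 ± 0.428 (SD, n = 9) and FR queens of 0.904 ± 0.546 (SD, n = 8). FM replicate 4 lay at 1.07, and 89.6% of the 1515 contigs called without it were nearer to the FR than to the FM mean in that queen. FR replicate 37 lay at -0.04 with 13.6% of contigs nearer to the FR mean, and FR replicate 32 lay at 0.23 with 32.0%. FM replicates 6 and 10 were near the middle, at 0.55 and 0.48. By the midpoint of 0.5, 2 of the 9 FM queens, replicates 4 and 6, lay on the FR side, as did 6 of the 8 FR queens. The 5 FR queens of colonies C2 and C3 other than replicate 32 lay between 1.14 and 1.42. The 8 SR queens, placed on the 970 contigs called from all libraries, lay between -0.04 and 0.34, and the 8 SM queens between -0.32 and 0.55. Neither group defines the line, but its ends are fixed by the FM and FR queens themselves, so these positions are a description without a test.

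**Figure D2:**
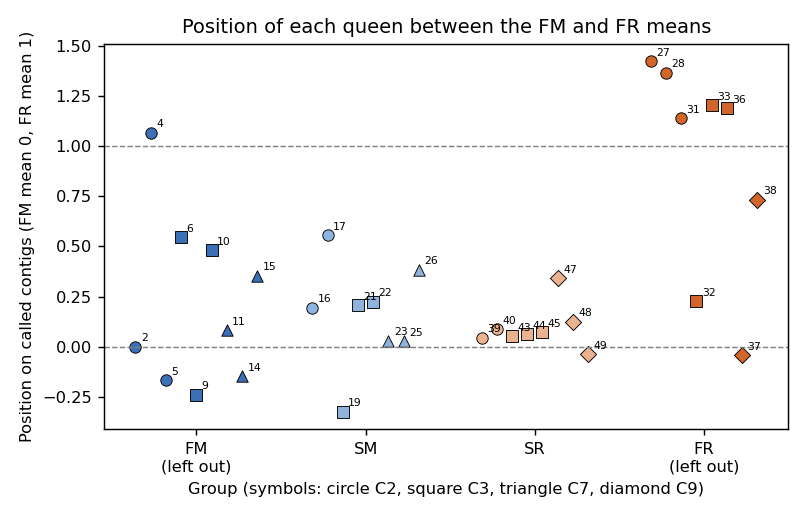
Position of each queen on contigs called between FR and FM, where 0 is the FM mean and 1 the FR mean (dashed lines), by group, with symbols for the colony and replicate numbers beside the points. FM and FR queens are placed on contigs called without them and SM and SR queens on the 970 contigs called from all libraries. FM 4 lies at 1.07, FR 37 at -0.04, and the SR queens between -0.04 and 0.34.

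Across contigs, the comparison asked which brain transcripts differ between mated queens that did not activate their ovaries after hibernation and queens that never mated. With the colony term, 471 contigs were higher and 499 lower in FR queens (edgeR quasi-likelihood test, adjusted p under 0.05), which is 8.40% and 8.90% of the 5606 tested and 17.3% together. Most differences were small: the median absolute log2 fold change of the called contigs was 0.49, and a 2-fold change was exceeded by 106 of the higher and 66 of the lower ones. Without the colony term 566 were higher (10.1%) and 586 lower (10.5%), together 20.5%. Both fits called 848 contigs, 416 higher and 432 lower, all in the same direction, which is 87.4% of the list with and 73.6% of the list without the colony term. A further 122 contigs were called only with the colony term and 304 only without it. With the 17 queens alone in the fit, 399 contigs (7.43% of 5369) were called with the colony term, 188 higher (3.50%) and 211 lower (3.93%), and 397 (7.39%) without it, 218 higher (4.06%) and 179 lower (3.33%). With the 12 queens of colonies C2 and C3 alone, 118 contigs were called, 2.20% of 5359, with 70 higher (1.31%) and 48 lower (0.896%). Without the queens of colony C2 the fit called 3 contigs (1002 at an unadjusted p under 0.05), and without those of colony C3 it called 2 (1188). Against a minimum change of 1.2-fold, 35 contigs were called.

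The number of calls rested on single queens. Leaving out one of the queens that stood apart raised it: the fit lacking FM replicate 4 called 1515, the one lacking FR replicate 37 called 1367, and the one lacking FR replicate 32 called 1276. Among FR queens it fell to 457 when replicate 36 was left out, to 467 for replicate 33, to 522 for replicate 27 and to 523 for replicate 28. Among FM queens it fell to 523 for replicate 5, to 538 for replicate 2 and to 622 for replicate 9. How many calls pointed up or down moved with the scaling, with 600 higher and 364 lower contigs under upper-quartile scaling. Total counts without scaling factors gave 425 higher and 160 lower and moved the median log2 fold change of all tested contigs from 0.01 to 0.10. The share of reads in the most abundant contig, given above, ranged from 0.00794% to 11.9% over the 17 libraries, and without the 10 most abundant contigs the split was 467 higher and 511 lower.

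Only 6 of the 5606 tested contigs separated all 8 FR from all 9 FM queens, and all 6 were among the 970 called. The calls rest on the same queens, so this is no separate support for them. They are named because they were so few, after their values were seen. Contig3370 had 0.609, 1.08 and 1.98 CPM as the lowest, median and highest FM value and 1.99, 2.75 and 5.40 CPM in FR queens. The highest FM value was that of FM replicate 4 and the lowest FR value that of FR replicate 38, so the groups touched without overlapping. On the log2 scale Contig3370 rose by 1.51 ± 0.21 (SE; edgeR adjusted p = 0.000358), and by 1.36 ± 0.22 without the colony term (edgeR adjusted p = 0.00115). The rise was 1.63 within colony C2 (edgeR adjusted p = 0.0503) and 1.32 within colony C3 (edgeR adjusted p = 0.0497), and the difference between the colonies did not pass (edgeR adjusted p = 0.965). It kept its call in each of the 17 fits without 1 queen, with log2 fold changes of 1.37 to 1.69.

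Contig7916 had 1.86, 2.73 and 3.92 CPM in FM and 4.51, 5.34 and 8.25 CPM in FR queens as lowest, median and highest values. Here too FM replicate 4 was the highest of its group, while FR replicate 32 was the highest of all 17 queens. On the log2 scale Contig7916 rose by 1.04 ± 0.19 (SE; edgeR adjusted p = 0.00160), and by 1.42 within colony C3 (edgeR adjusted p = 0.0337). Within colony C2 it was 0.67 (edgeR adjusted p = 0.134), and the difference between the colonies did not pass (edgeR adjusted p = 0.911). Contig5406, the only abundant member of the 6, had 1083, 1311 and 1365 CPM in FM and 1463, 1756 and 2272 CPM in FR queens. Lack of overlap is how all 6 were chosen, and the rise of Contig5406 was only 0.48 ± 0.09 on the log2 scale (SE; edgeR adjusted p = 0.00187). It was 0.61 within colony C2 (edgeR adjusted p = 0.0503) and 0.42 within colony C3 (edgeR adjusted p = 0.0989), neither called. Contig5406 and Contig7916 kept their calls without any 1 of the 17 queens.

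Contig10391 was the clearest of the 3 contigs that were lower in all FR queens. It had 4.34, 5.33 and 5.99 CPM as lowest, median and highest FM value and 2.64, 3.27 and 4.18 CPM in FR queens. The log2 fold change was -0.59 ± 0.13 (SE; edgeR adjusted p = 0.00426), and it stayed between -0.65 and -0.56 when any 1 queen was left out. Within colony C2 it was -0.42 (edgeR adjusted p = 0.174) and within colony C3 -0.70 (edgeR adjusted p = 0.0679), neither called. Contig10534 had 0.981, 1.23 and 1.53 CPM in FM and 0.362, 0.734 and 0.980 CPM in FR queens. The lowest FM queen, replicate 4, and the highest FR queen, replicate 32, were nearly equal, and Contig10534 fell by 0.80 ± 0.21 on the log2 scale (SE; edgeR adjusted p = 0.0137), which was not called in the 12 queens of colonies C2 and C3 alone (edgeR adjusted p = 0.0535). Contig8769 had 1.78, 2.03 and 2.78 CPM in FM and 1.17, 1.46 and 1.76 CPM in FR queens. Its change of -0.42 ± 0.13 on the log2 scale (SE; edgeR adjusted p = 0.0322) was the smallest of the 6, and the call was lost without any 1 of FM replicates 2, 5 and 9 or FR replicates 27, 28, 31, 33 and 36 (log2 fold changes of -0.42 to -0.36). The call of Contig8769 was also lost with total counts (-0.31, edgeR adjusted p = 0.122), with no filter on low counts and with the 12 queens alone (both edgeR adjusted p = 0.0630). Within colonies C2 and C3 Contig10534 was not called (edgeR adjusted p = 0.0505 and 0.341), and neither was Contig8769 (edgeR adjusted p = 0.0603 and 0.272). With total counts in place of TMM scaling, 3 contigs were higher and 0 lower without overlap, so the groups overlapped for all 3 of these lower contigs. In the 12 queens of colonies C2 and C3, 60 contigs separated the groups upward and 47 downward, 1.91% of those tested. Of these, 73 were among the 970 called, against 17.3% of all tested contigs. The calls use the same 12 queens, so a high share was bound to follow.

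**Figure D3:**
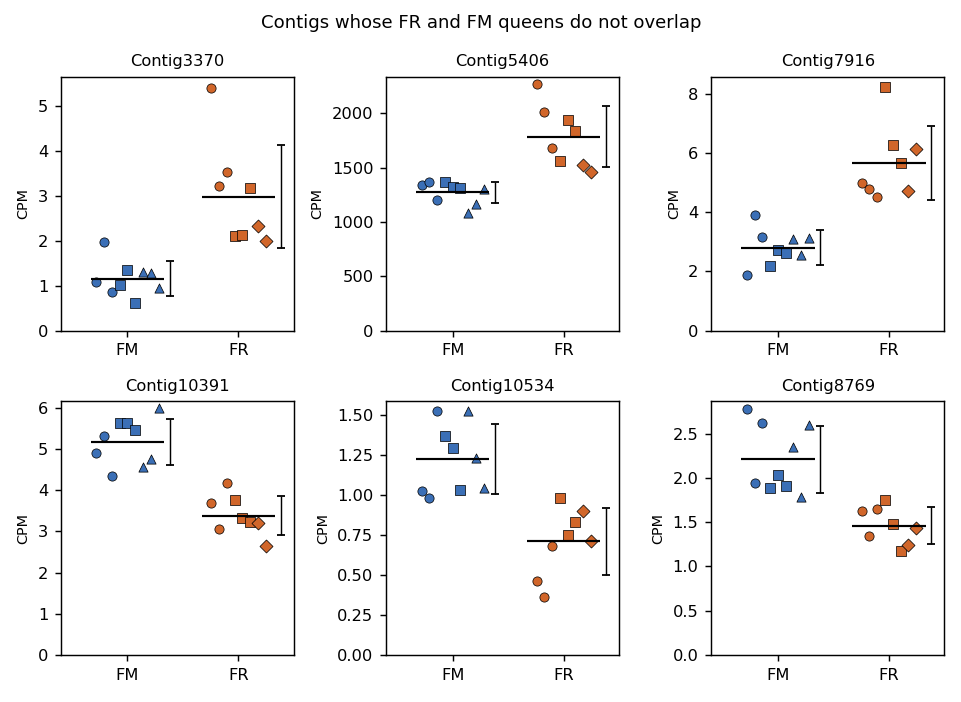
CPM of the 6 contigs whose 8 FR and 9 FM queens do not overlap, one point per queen, shaped by colony (circle C2, square C3, triangle C7, diamond C9), with the group mean as a line and the SD as a bar. Contig5406 runs from 1083 to 1365 CPM in FM and from 1463 to 2272 CPM in FR queens.

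The contigs with the largest fold changes under a naming rule overlapped between the groups. Over all 970 called contigs the log2 fold change reached from -5.41 to 3.44, so these are not the largest of all. By a rule that took contigs called with and without the colony term, averaging 5 CPM or more and pointing the same way in colonies C2 and C3, 628 qualified, and the 2 with the largest fold change in each direction are named. Contig8577 had 0.332, 2.46 and 18.2 CPM as lowest, median and highest FM value and 1.46, 10.9 and 87.1 CPM in FR queens. Its rise of 2.06 ± 0.59 on the log2 scale (SE; edgeR adjusted p = 0.0196) rested in part on FR replicate 31, at 87.1 CPM, against 23.9 CPM for the next FR queen. Contig8577 was not called without FR replicate 31 (1.60, edgeR adjusted p = 0.0697) or FR replicate 33 (1.76, edgeR adjusted p = 0.0613). Its call also ended with the 17 queens alone (edgeR adjusted p = 0.0688 with and 0.0752 without the colony term) and with the 12 queens of colonies C2 and C3 (edgeR adjusted p = 0.0967). The SR median of Contig8577 was 10.6 CPM, near the FR median, and the SM median was 3.71 CPM. The log2 fold change of SR against FM, 1.39, was not called (edgeR adjusted p = 0.439). Contig4710 had 3.60, 10.4 and 26.6 CPM in FM and 12.7, 24.9 and 59.7 CPM in FR queens. FM replicate 4 was the highest FM queen, and the 3 FR queens of colony C2 had 27.5, 42.7 and 59.7 CPM. The log2 fold change of Contig4710 was 1.51 ± 0.33 (SE; edgeR adjusted p = 0.00427), or 1.12 ± 0.36 without the colony term (edgeR adjusted p = 0.0292). With the 17 queens alone and no colony term Contig4710 was not called (edgeR adjusted p = 0.0725).

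Contig735 was lower in FR queens and varied most among FM queens. It had 35.1, 565 and 9214 CPM as lowest, median and highest FM value, and 40.0, 44.5 and 404 CPM in FR queens. FM replicates 4 and 10, at 39.2 and 35.1 CPM, were as low as the FR queens, while FR replicate 37, at 404 CPM, was above 4 of the 9 FM queens. The log2 fold change was -4.48 ± 1.44 (SE; edgeR adjusted p = 0.0342), and -3.07 without FM replicate 2, which was not called (edgeR adjusted p = 0.103). Contig735 was not called either without FM replicate 5 or 9 or any 1 of FR replicates 27, 28, 31, 33 and 36 (edgeR adjusted p of 0.0532 to 0.0775), although its log2 fold change stayed between -4.51 and -4.29 in these fits. Contig9314 had 2.56, 15.6 and 41.8 CPM in FM and 0.424, 3.17 and 13.9 CPM in FR queens. The highest FR value was again that of replicate 37 and the lowest FM values were those of replicates 10 and 4, at 2.56 and 7.73 CPM. Contig9314 fell by 2.42 ± 0.63 on the log2 scale (SE; edgeR adjusted p = 0.0127). It kept its call without any 1 of the 17 queens but not with the 12 queens of colonies C2 and C3 alone (edgeR adjusted p = 0.0526).

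**Figure D4:**
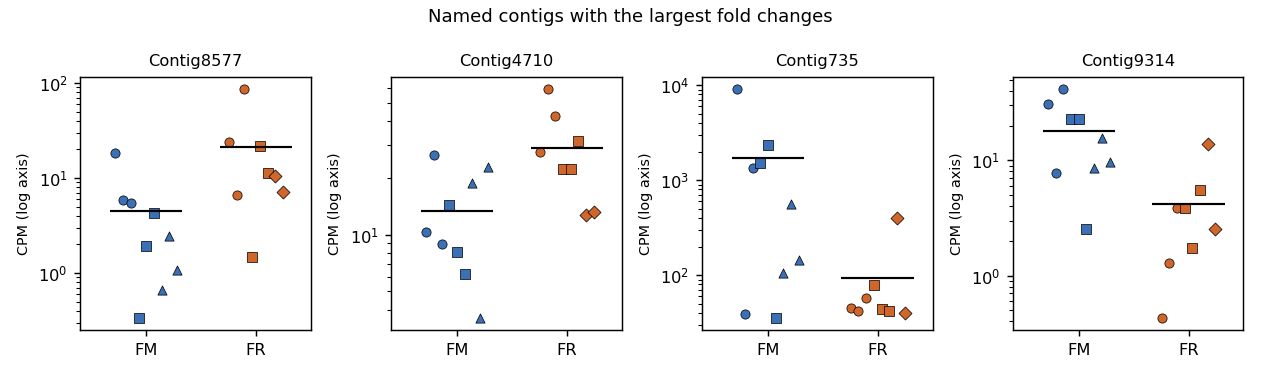
CPM on a log axis of the 4 contigs with the largest fold changes under the naming rule, which asked for a mean of 5 CPM or more. Each point is a queen, shaped by colony (circle C2, square C3, triangle C7, diamond C9), with the arithmetic group mean as a line. The groups overlap in each contig, and Contig735 spans 35.1 to 9214 CPM among FM queens.

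Colonies C2 and C3 are the only ones that hold both groups, and their queens are separate, so each can be read against the other. Within colony C2, 2 contigs were called (0.0357% of 5606), both higher in FR queens, and within colony C3 48 were called (0.856%), 14 higher and 34 lower (0.250% and 0.606%). At an adjusted p under 0.1 the edgeR counts, of the same 5606 contigs, were 780 in colony C2 and 313 in colony C3. Over all tested contigs, 72.7% had the same direction in both colonies, and across the 5606 contigs, which are not independent replicates, the correlation of the log2 fold changes was 0.473 (Pearson's r) and 0.527 (Spearman's rho). Of the 48 contigs called in colony C3, 41 had the same direction in colony C2, where their median log2 fold change in that direction was 0.43, against a median size of 1.13 in colony C3. At an unadjusted p under 0.05, 1522 of the 5606 tested contigs differed in colony C2 and 1125 in colony C3. Of these, 532 did so in both colonies in the same direction, 35.0% of the first list and 47.3% of the second. A further 7 did so in opposite directions. Unrelated lists of these sizes would also share contigs, and the overlap was not tested against that.

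No contig was called for a difference between the colonies in the change itself (edgeR, 0 of 5606, 278 at an unadjusted p under 0.05), while DESeq2 called 6 and limma-voom 2. That does not show that the colonies respond alike. Both colony counts rested on single queens. For colony C2, leaving out FM replicate 4 gave 1552 calls, replicate 6 gave 330, replicate 10 gave 91, replicate 9 gave 87, replicate 14 gave 64 and replicates 2 and 5 each gave 0. Leaving out FR replicate 32 gave 351, replicates 37 and 38 each gave 218, replicate 31 gave 48 and replicate 36 gave 12, and the remaining queens gave 2 or 3. For colony C3, leaving out FM replicate 10 gave 238 calls, replicate 4 gave 205, replicate 9 gave 94, replicate 6 gave 22, replicate 15 gave 18 and replicate 2 gave 16. Leaving out FR replicate 32 gave 250, replicates 28 and 31 each gave 15, replicate 27 gave 12 and replicates 33 and 36 each gave 0, and the remaining queens gave 41 to 53. Leaving out a queen of another colony also changes the filter, the scaling and the shared estimate of the spread, and between 5585 and 5659 contigs were tested in these fits.

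The contigs called within colony C2 were Contig5388 and Contig6733, named because they were so few. Contig5388 had 9.02 to 16.4 CPM in the 3 FR queens of colony C2 and 0.731 to 1.75 CPM in its 3 FM queens, a log2 fold change of 3.22 (edgeR adjusted p = 0.0267). In colony C3, FR replicates 32, 33 and 36 had 0.866, 0.945 and 3.18 CPM, above the 0.373 to 0.578 CPM of FM queens there, but the rise of 1.72 was not called (edgeR adjusted p = 0.109). Over all queens Contig5388 rose by 2.72 ± 0.44 on the log2 scale (SE; edgeR adjusted p = 0.00145). High values in colony C2 were not limited to FR queens: SR replicates 39 and 40 of that colony had 6.83 and 6.80 CPM. SR queens of colonies C3 and C9 had 0.398 to 1.80 CPM. Contig6733 had 1.72 to 2.06 CPM in FR and 0.372 to 0.577 CPM in FM queens of colony C2, a log2 fold change of 2.07 (edgeR adjusted p = 0.0139). In colony C3 its FR queens had 0.881 to 1.53 CPM and its FM queens up to 1.80 CPM, a log2 fold change of -0.22 (edgeR adjusted p = 0.749). The difference between the colonies did not pass (edgeR adjusted p = 0.268), and over all queens Contig6733 was not called (0.51 ± 0.31 SE on the log2 scale; edgeR adjusted p = 0.246). For this contig SR replicates 39 and 40 of colony C2 had 0.661 and 0.678 CPM, below the FR queens of their colony.

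The 2 FR queens of colony C9 and the 3 FM queens of colony C7 had no part in the fit of 12 queens, so the 118 contigs called there were looked up in them. Of the 118, 93 (78.8%) had the same direction between colony C9 FR and colony C7 FM queens, against 58.8% of the 5352 contigs present in both fits. The median difference in mean log2 CPM in the called direction was 0.22, against a median size of 0.67 in the 12 queens and a median difference of 0.06 over all contigs. Colony and group cannot be told apart in these 5 queens, and FR replicate 37, which lay with FM queens above, is 1 of the 2.

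**Figure D5:**
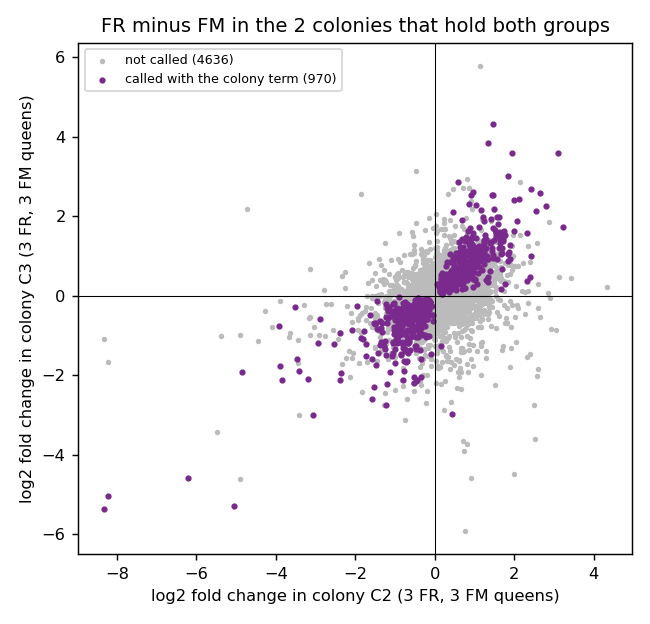
FR minus FM log2 fold change of each tested contig in colony C2 and in colony C3, from 3 FR and 3 FM queens each, with the 970 contigs called with the colony term in purple. Most contigs fall in the quadrants of equal direction (72.7% of all tested), and the purple points do so partly because they were selected on both colonies together.

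Calls were more frequent among contigs with many reads, where the error was smaller. Abundance here is reads per contig, not per length, since contig lengths were not used. Of 1376 contigs with a mean of 100 CPM or more over all libraries, 141 were higher and 242 lower in FR queens (27.8% called), and the median size of a called log2 fold change was 0.29. Of 827 contigs at 20 to 100 CPM, 84 were higher and 113 lower. Below that the balance turned: at 5 to 20 CPM 69 of 743 were higher and 48 lower, at 1 to 5 CPM 93 of 1069 were higher and 57 lower, and under 1 CPM 84 of 1591 were higher and 39 lower (7.73% called), with a median size of 1.17. The median standard error of a log2 fold change was 0.08 in the most abundant and 0.35 in the least abundant class. Since the split by direction follows the scaling, this turn was not tested against it.

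Among the 10 contigs ranked most abundant over the libraries as a whole, 3 were called with the colony term and 4 without it. Over all 5606 tested contigs, 17.3% were called with the term and 20.5% without it. Of the contigs at 100 CPM or more, 27.8% were called with the term, so 3 of 10 is near the share of their class. The second most abundant was higher in FR queens, with 3.02 ± 1.25% of reads against 1.35 ± 1.06% in FM queens (SD), a change of 0.99 ± 0.29 on the log2 scale (SE; edgeR adjusted p = 0.0237). The eighth was lower, with 0.347 ± 0.396% against 1.19 ± 0.725% (-2.22 ± 0.60 SE on the log2 scale; edgeR adjusted p = 0.0151). The fourth was lower by a smaller margin, with 1.01 ± 0.306% against 1.25 ± 0.312% (-0.45 ± 0.16 SE on the log2 scale; edgeR adjusted p = 0.0456), and was not called without the colony term (edgeR adjusted p = 0.0751). The sixth and the seventh were called only without the term, at log2 fold changes of 0.33 (edgeR adjusted p = 0.0485) and -1.11 (edgeR adjusted p = 0.0479), against adjusted p of 0.0618 and 0.0628 with it. The most abundant contig spanned 0.116% to 11.9% among FM and 0.00794% to 4.78% among FR queens, and its log2 fold change of -2.15 ± 1.31 was not called (SE; edgeR adjusted p = 0.249). FR replicate 32, at 4.78%, was the highest FR queen for this contig, and FM replicate 4, at 0.116%, the lowest FM queen.

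FM queens varied more among themselves than FR queens. The median SD of log2 CPM over contigs was 0.387 in the 9 FM and 0.305 in the 8 FR queens, and the SD was larger in FM queens for 3833 contigs (68.4% of 5606). In colonies C2 and C3, with 6 queens a group, the medians were 0.393 and 0.252, and 77.7% of contigs varied more in FM queens. Without FM replicate 6 the FM median was 0.353, and 61.2% of contigs still had the larger SD in FM queens. These are descriptions of 17 queens without a test.

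Against the same FM queens, the mated queens of the other groups gave few calls. In SR queens 1 contig was higher (0.0178% of 5606) and 2 lower (0.0357%), together 0.0535%, and in SM queens 0 were called (edgeR, 574 for SR and 564 for SM at an unadjusted p under 0.05). These comparisons share the FM queens with the 970 calls for FR, so the counts are given side by side and the difference between them was not tested.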

How the data were processed

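Raw read counts, deposited as whole numbers for 10672 contigs with a column for each library, per the file headers, were the start. Per the submitters' processing notes, TopHat, SAMtools, FastQC and edgeR were used, with no version or role given. For build, annotation and counting program nothing is given in the sources used here. The deposited scaled and clustering tables were not used. The group-wise filterByExpr filter with a minimum count of 10 kept 5606 contigs, which hold 99.99% of reads. TMM scaling and a robust quasi-likelihood fit in edgeR 4.0.16 (R 4.3.3) used the 33 libraries and a model of group plus colony. Adjusted p are Benjamini-Hochberg values, and a call means under 0.05. Within-colony changes and their difference came from a fit with 1 mean per group and colony. CPM used the TMM-scaled total of tested contigs, and log2 CPM a prior count of 2. The SE was obtained from the log2 fold change and the square root of F. Permutation tests were exact and two-sided over queens. Scripts were tested on simulated data. The labels describe separate queens, some of which share a colony, and 0 columns lay outside the series. Alternatives used DESeq2 1.42.0, limma 3.58.1 (voom with quality weights), other scalings and filters, other sets of queens and a test against 1.2-fold. The comparison, the naming rule and the tests were chosen with earlier results of these data known. The rule named at most 2 contigs per direction and asked for groups without overlap, but fewer than 2 in a direction met that, so that condition was dropped as the rule provides. The contigs named for lack of overlap or for calls within colony C2 were added after their values were seen.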

Additional observations from a re-analysis of the deposited data

Results flagged for a closer look

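Library measures, components, positions and named contigs were screened within FM and within FR, 38 sets in all, and in 11 of them a single queen lay far from the rest of its group. For normally distributed values chance flags about 1 set in 20. Several of these sets hold skewed CPM values, for which that rate need not hold, and several share queens. Among FM queens, replicate 6 had a second component score of -63.8, with the nearest other at -6.89. FM replicate 2 had 11.9% of reads in the most abundant contig, with the nearest other at 6.00%, 18.2 CPM of Contig8577 (nearest 5.79) and 9214 CPM of Contig735 (nearest 2369). Among FR queens, replicate 32 had 4.78% of reads in the most abundant contig (nearest 1.64%), 15.8% in the 10 most abundant (nearest 11.5%) and 8.25 CPM of Contig7916 (nearest 6.27). FR replicate 37 had 404 CPM of Contig735 (nearest 78.5) and 13.9 CPM of Contig9314 (nearest 5.56). FR replicate 31 had 87.1 CPM of Contig8577 (nearest 23.9), and FR replicate 27 had 5.40 CPM of Contig3370 (nearest 3.53).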

How the results depend on the processing

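No paired analysis was possible because each library comes from a separate queen, and colony was the only link between FR and FM queens. The number of FR versus FM calls, 970 with the colony term, stayed within 1.5 times under 9 of 17 alternatives, including DESeq2 (1287) and no colony term (1152). It was 399 with only the 17 queens, 397 with these and no colony term, 118 with the 12 queens of colonies C2 and C3, 3 and 2 when colony C2 or C3 was left out, 585 with total counts, 2475 with limma-voom and 35 against 1.2-fold. Leaving out 1 queen gave 457 to 1515. The limma-voom quality weights were lowest for FM replicate 6 (0.208), FR replicate 37 (0.311) and FM replicate 4 (0.400), against 2.65 for FR replicate 33, and the part of the weights in the higher count was not tested.

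Within colony C2 the count, 2, was 0 with the 12 queens alone, 155 with DESeq2 size factors, 73 with upper-quartile scaling, 5 without the 10 most abundant contigs, 142 with the filter of 1 CPM in 8 libraries, 653 with DESeq2, 2530 with limma-voom and 0 to 1552 without 1 queen. Within colony C3 the count, 48, was 0 with the 12 queens alone, with total counts and against 1.2-fold, 13 with upper-quartile scaling, 1 with no filter, 314 with DESeq2, 733 with limma-voom and 0 to 250 without 1 queen. For the difference between the colonies, 0 with edgeR, DESeq2 called 6, limma-voom 2, and fits without 1 queen 0 to 7 (7 without FM replicate 10, 2 without FM replicate 9). The cause of these differences was not tested.

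The difference of 31.9 on the first component was 28.9 to 38.5 without 1 queen and lost its adjusted call when the 12 queens were moved only within colonies (38.6, adjusted p = 0.0600, exact permutation). The 6 contigs without overlap became 3 with total counts (3 higher, 0 lower), 107 in the 12 queens of colonies C2 and C3, and 6 to 33 without 1 queen (33, 12 and 11 for FM replicates 4, 11 and 6, and 25 and 20 for FR replicates 37 and 32). These settings for overlap and for the spread were added after the data were seen, except the 12 queens. The number of contigs with the larger SD in FM stayed within 1.5 times throughout, at 3427 to 4335 without 1 queen.

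Of the 12 named contigs, 11 kept their direction under every alternative run, and Contig6733 reversed to -0.33 without colony C2. Without colony C2, Contig7916 kept its call, and without colony C3, Contig3370 and Contig5388 did, while the other called contigs lost theirs. At these depths a log2 fold change of contigs under 1 CPM carried a median SE of 0.35, so small changes there were not detectable.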

Other observations

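The contigs that separated all FR from all FM queens had these levels in the mated queens of the other groups, whose comparisons with FM share the FM queens. Contig3370 had 0.852, 1.37 and 1.88 CPM as lowest, median and highest value in SM and 1.08, 1.62 and 1.98 CPM in SR queens. The lowest FR queen, at 1.99 CPM, was nearly equal to the highest SR queen. The contig was chosen because all FR values were high, which favours lower values in the other groups. Contig5406 had 874, 1243 and 1489 CPM in SM and 1197, 1457 and 1583 CPM in SR queens. Contig7916 had 2.64, 3.43 and 5.83 CPM in SM and 2.53, 4.35 and 6.47 CPM in SR queens.

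The median of Contig10391 was 5.12 CPM for SM, 3.36 CPM for SR, 5.33 CPM for FM and 3.27 CPM for FR. The median of Contig10534 was 1.40 CPM for SM, 0.748 CPM for SR, 1.23 CPM for FM and 0.734 CPM for FR. For these 2 contigs the log2 fold changes of SR against FM, -0.48 and -0.60, were not called (edgeR adjusted p = 0.205 and 0.324). Contig8769 had SM and SR medians of 2.15 and 2.12 CPM, both near the FM median of 2.03 CPM. Among the contigs named by the rule, Contig8577 is described above. The SR median was 14.4 CPM for Contig4710, 1126 CPM for Contig735 and 13.4 CPM for Contig9314. In the same order the FM medians were 10.4, 565 and 15.6 CPM and the FR medians 24.9, 44.5 and 3.17 CPM.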
